A study of Arabidopsis thaliana with 8 samples.

Results

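The genes described here store, chelate and move iron in the leaf. They are the ferritin genes *FER1*, *FER3* and *FER4*, the nicotianamine synthase genes *NAS1*, *NAS2*, *NAS3* and *NAS4*, and the transporter genes *OPT3*, *YSL1* and *YSL3*. These 10 loci were taken by identifier from a deposited table of 24492 loci, and all 10 were among the 23050 of these that had FPKM values. FPKM is a fragment count divided by transcript length and library size. This scaling left a trend with transcript length between the genotypes, which is described below. RNA-seq libraries came from rosette leaves of 6-week-old *Arabidopsis thaliana* plants, 3 from the *kaku4* mutant (genotype given as *kaku4-2*) and 3 from WT (Columbia, given as col). KAKU4 is a protein of the nuclear lamina, and *kaku4* is a single T-DNA insertion line. No other allele or treatment is given for these 6 libraries. *KAKU4* itself averaged 0.98 ± 0.26 FPKM in *kaku4* and 5.86 ± 0.50 FPKM in WT (SD, n = 3 each), so some transcript remained in the mutant. Each library is described as a biological replicate.

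Free iron is toxic, so plastids keep it in ferritin, a hollow protein shell that holds iron as a mineral. Nicotianamine is a small chelator, made by nicotianamine synthase from S-adenosylmethionine, that keeps iron, zinc and copper soluble in cells and in the vascular tissue. YSL proteins carry metal-nicotianamine complexes across membranes, and OPT3 is needed for loading iron into the phloem. In leaves, ferritin transcripts are known to be abundant when iron is plentiful, and genes of the iron-deficiency response when it is scarce.

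The best-known regulatory stretch of this group is the iron-dependent regulatory sequence (IDRS) of *FER1*, which keeps the gene repressed when iron is low. The G-box is a motif bound by bHLH and bZIP factors. The 300 bases before the annotated start codon of each gene were read from the RefSeq genome (TAIR10.1) and searched on both strands for CACGAG (the first letters of the IDRS), for the G-box CACGTG and for GNATATNC (P1BS, the motif bound by the phosphate starvation factor PHR1). The motifs were chosen after the expression values were known, and no matches overlapped each other. The windows are shown here because they set *FER1* beside the other ferritin genes and the rest of the group, with the motif in capitals, each 30 bases long and read 5′ to 3′ on the strand of the gene.
*FER1* CACGAG: cattggatgtagCACGAGgccgccacacgc
*FER1* G-box: atatccaccctcCACGTGgatctcaatcca
*FER1* P1BS: taacgtggatcGAATATCCtcacgttcaca
*FER3* G-box: atcgtatccatcCACGTGtcaacaatccac
*FER4* G-box: atctcgtacgtaCACGTGtctctcatccgc
*OPT3* G-box: gtgatagagcgaCACGTGgataaactaacg
*NAS1* CACGAG: aagaattgacccCACGAGtgccaataaata

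The *FER1* windows lie on chromosome 5, minus strand, at 229767-229796 (CACGAG), 229720-229749 (G-box) and 229803-229832 (P1BS), inside the annotated 5′ leader. The *FER3* window is at 20816094-20816123 on chromosome 3 and the *FER4* window at 16833346-16833375 on chromosome 2, both on the minus strand and before the annotated transcript start. The *OPT3* window (chromosome 4, minus strand, 9250205-9250234) and the *NAS1* window (chromosome 5, minus strand, 1458943-1458972) lie inside annotated leaders. Counted from its first letter, a G-box stood 143, 127 and 149 bases before the start codon of *FER1*, *FER3* and *FER4*, so these 3 ferritin genes had it at a like distance. *FER1* was the only 1 of these 3 with CACGAG, 190 bases before its start codon, and the only 1 of the 10 genes with P1BS, 227 bases before it. In all, 4 of the 10 genes had a G-box (6.07% of 27443 nuclear protein-coding genes), 2 had CACGAG (5.87%) and 1 had P1BS (5.19%). None of these motifs was found in this window of *NAS2*, *NAS3*, *NAS4*, *YSL1* or *YSL3*. Such a match describes letters only, and binding was not measured.

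Across the 10 genes the pattern was split. *FER1* and *YSL1* were upregulated in *kaku4*, *NAS2* and *NAS4* were downregulated, and the other 6 did not pass. Genes were called in limma, fitted on log2(FPKM + 0.1), where the log2 fold change was 1 or more in either direction and the adjusted p (Benjamini-Hochberg) was 0.05 or less. The fit covered 20618 genes averaging 0.1 FPKM or more, among them all 10 genes. Fold changes on this scale understate those of genes with low FPKM. By this rule 16.4% of all genes tested were upregulated and 11.5% downregulated, against 2 and 2 of the 10 here, so these shares were near the background. At the adjusted p alone, 4 of the 10 were higher and 4 lower in *kaku4*, against 28.6% and 28.3% of all genes. *NAS3*, counted among the 4 higher, did not keep an adjusted p of 0.05 or less under several other ways of processing. The same held under 1 or more of them for *YSL1* and *YSL3*, also counted higher, and for *FER3* and *NAS1*, counted lower. Only *FER1*, *NAS2* and *NAS4* kept it throughout. The median log2 fold change was 0.0004 over the 10 genes and 0.0021 over all genes tested. With 3 libraries per genotype, the smallest two-sided p of an exact permutation test is 0.1, and the adjusted p values depend on limma's pooling of the spread across genes.

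**Figure D1:**
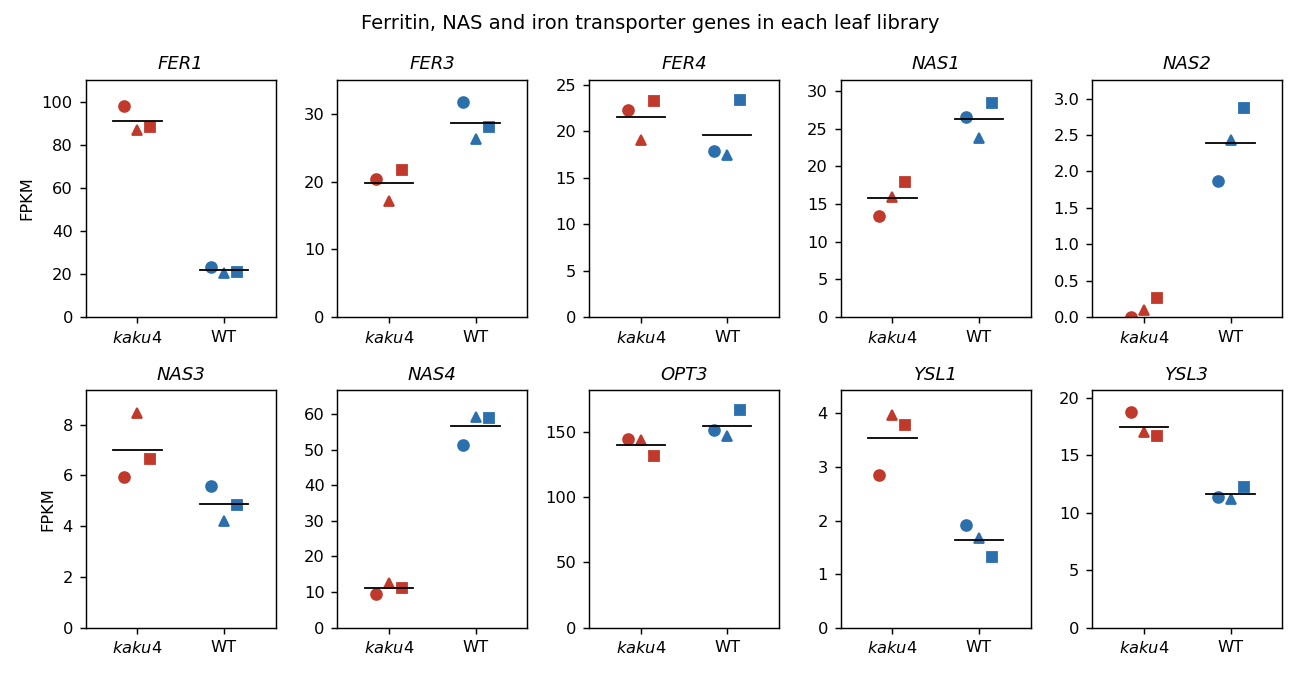
FPKM of each gene in the 3 *kaku4* libraries (red) and the 3 WT libraries (blue), with replicate 1 as a circle, 2 as a triangle and 3 as a square. Bars are means (none where a library is listed at 0), and each panel has its own axis. *FER1* lies between 86.9 and 98.5 in *kaku4* and between 20.6 and 23.3 in WT, whereas *NAS4* lies between 9.53 and 12.5 in *kaku4* and between 51.3 and 59.2 in WT.

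Several features of the libraries bear on these values. Summed over all loci, FPKM ranged between 953041 and 1188694 in *kaku4* and between 1412227 and 1559944 in WT. The authors report mapped reads per library, but read counts per gene are not analysed here. The number of reads behind each value was thus not examined, and no counting interval is given. Replicate 1 of both genotypes stood apart in chloroplast transcripts, with 30587 FPKM in *kaku4* and 44363 FPKM in WT, against 499 to 945 FPKM in the other 4 libraries. The log2 fold change also followed transcript length across genes (Spearman correlation 0.59 over 20464 genes, which are not independent replicates). Of all called genes 58.8% were upregulated, but 37.4% when each library was centred on its median and 93.7% when all libraries were rescaled to a common total, which moved the median of all genes by -0.20 and 0.47 on the log2 scale.

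*FER1* (AT5G01600, chromosome 5, 227953 to 230051, minus strand, 8 exons) is the ferritin gene best known for its response to iron. It had 98.5, 86.9 and 88.5 FPKM in the *kaku4* libraries, against 23.3, 20.6 and 21.2 FPKM in the WT libraries. Every *kaku4* library was far above every WT library, and the spread within each genotype was small beside the gap. The *kaku4* mean was 4.21 times the WT mean. On the log2 scale the difference was 2.07 (SE 0.12, 95% interval 1.80 to 2.34, adjusted p = 2.98e-05, limma with Benjamini-Hochberg adjustment). *FER1* was the 362nd highest of the 20618 genes by log2 fold change.

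The other ferritin genes of the leaf were not called. *FER3* (AT3G56090, chromosome 3, 20813904 to 20816035, minus strand, 8 exons) had 20.5, 17.2 and 21.7 FPKM in *kaku4*, against 31.8, 26.3 and 28.1 FPKM in WT. Every *kaku4* library was below every WT library, but the log2 fold change of -0.54 (95% interval -0.86 to -0.22, limma adjusted p = 0.0111) did not reach the threshold in size. *FER4* (AT2G40300, chromosome 2, 16831109 to 16833294, minus strand, 8 exons), whose product is found in mitochondria as well as plastids, had 22.3, 19.1 and 23.3 FPKM in *kaku4* and 17.9, 17.4 and 23.4 FPKM in WT. The genotypes overlapped, and the interval of its log2 fold change of 0.15 ran between -0.21 and 0.50 (limma adjusted p = 0.444). The value of *FER4* depended on the processing, with -0.05 with the libraries centred (limma adjusted p = 0.816), 0.66 at a common total (limma adjusted p = 0.00888) and 0.58 with the length trend removed (limma adjusted p = 0.0117). *FER3* had -0.02 at a common total (limma adjusted p = 0.903) and -0.12 with the length trend removed (limma adjusted p = 0.436).

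As a family, the ferritin genes differed in composition as well as in sum. Their summed FPKM was 132.6 ± 9.06 in *kaku4* and 69.95 ± 4.87 in WT (SD, n = 3 each), a ratio of 1.90. *FER1* made up 69.7%, 70.6% and 66.3% of this sum in the *kaku4* libraries, against 32.0%, 32.0% and 29.2% in the WT libraries. *FER3* made up 14.5%, 13.9% and 16.3% in *kaku4*, and with 43.6%, 40.9% and 38.7% it was the largest share in WT. The ratio of *FER1* to *FER3* within a library, which does not depend on the scaling between libraries, was 4.81, 5.06 and 4.07 in *kaku4* and 0.734, 0.783 and 0.754 in WT. *FER4* also stood above *FER3* in every *kaku4* library, with ratios of 1.09, 1.11 and 1.07, and below it in every WT library, with 0.562, 0.664 and 0.833. The longest exact stretch that the *FER1* transcript shares with another of these ferritin transcripts is 17 bases (with *FER4*), and *FER3* and *FER4* share 32, both short beside reads of 150 bases. Exact stretches alone do not show how reads were divided between the transcripts, which was not examined.

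**Figure D2:**
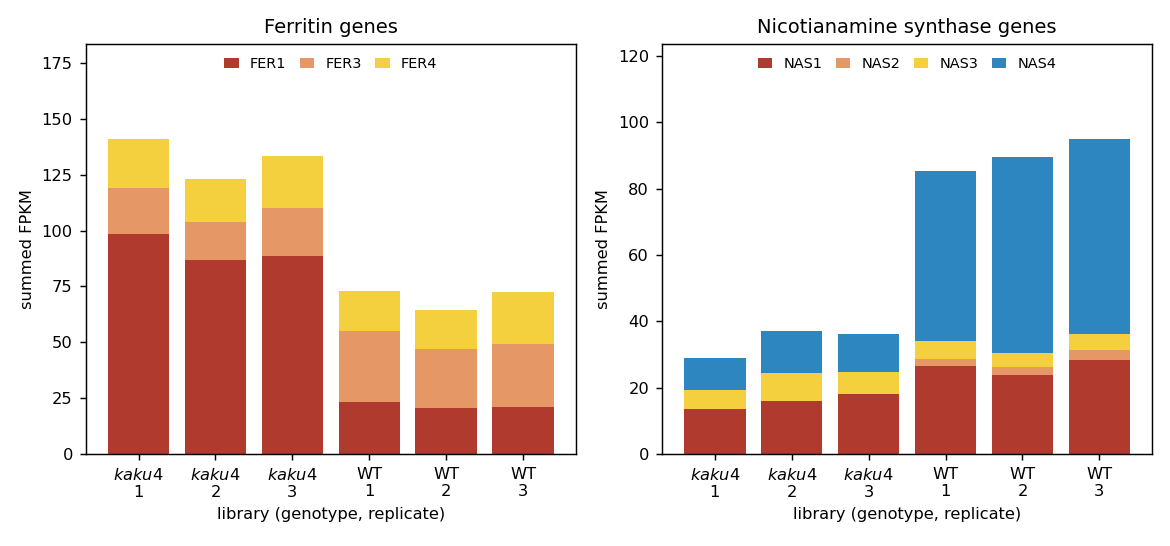
Summed FPKM of the ferritin genes (left) and the nicotianamine synthase genes (right) in each library, with the *kaku4* libraries left of the WT libraries and each color standing for a gene. The ferritin sum averages 132.6 in *kaku4* and 69.95 in WT. *FER1* averages 91.27 in *kaku4* and 21.69 in WT, *FER3* 19.79 and 28.7, and *FER4* 21.55 and 19.56. The nicotianamine synthase sum averages 34.0 in *kaku4* and 90.0 in WT, most of the missing height being *NAS4*.

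The nicotianamine synthase genes, each a single exon, differed the other way in sum. Their FPKM summed to 34.0 ± 4.44 in *kaku4* and to 90.0 ± 4.83 in WT (SD, n = 3 each), a ratio of 0.378. *NAS4* (AT1G56430, chromosome 1, 21136835 to 21138277, plus strand) is known to respond to iron shortage, and it had the largest difference in FPKM of the 4 genes. It had 9.53, 12.5 and 11.2 FPKM in the *kaku4* libraries, against 51.3, 59.2 and 58.9 FPKM in the WT libraries. The genotypes were far apart, the WT mean being 5.09 times the *kaku4* mean. The log2 fold change was -2.34 (SE 0.14, 95% interval -2.67 to -2.02, adjusted p = 3.45e-05, limma with Benjamini-Hochberg adjustment), and *NAS4* was the 122nd lowest of the genes tested.

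*NAS2* (AT5G56080, chromosome 5, 22711141 to 22712441, minus strand) was low in both genotypes. It was listed at 0, 0.0998 and 0.264 FPKM in *kaku4*, against 1.87, 2.43 and 2.87 FPKM in WT. All *kaku4* values thus lay below the lowest WT value, close to the lower end of the scale. *NAS2* had a log2 fold change of -3.66 (SE 0.47, limma adjusted p = 5.99e-04) and was the 24th lowest of the genes tested, but the size depended on the pseudocount, with -1.59 at a pseudocount of 1 and -5.14 at 0.01. The call itself was kept in both cases.

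*NAS1* (AT5G04950, chromosome 5, 1457641 to 1459039, minus strand) had 13.5, 16.0 and 17.9 FPKM in *kaku4* and 26.6, 23.8 and 28.4 FPKM in WT. The genotypes did not overlap, but its log2 fold change of -0.74 (95% interval -1.07 to -0.40, limma adjusted p = 0.00327) was under the threshold in size, and at a common total it was -0.22 (limma adjusted p = 0.347). *NAS1* and *NAS2* share an exact stretch of 49 bases and *NAS3* and *NAS4* a stretch of 32, which are also short beside the reads. How reads were divided between these transcripts was not examined either.

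*NAS3* (AT1G09240, chromosome 1, 2984829 to 2986231, plus strand) was the only gene of the family with a higher mean in *kaku4*. It had 5.95, 8.45 and 6.64 FPKM in *kaku4* and 5.58, 4.19 and 4.82 FPKM in WT. The lowest *kaku4* value lay just above the highest WT value. The log2 fold change was 0.51 (95% interval 0.09 to 0.94, limma adjusted p = 0.0428), and it passed the call only at a common total (1.02).

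Within the family, *NAS4* was the most abundant transcript in WT and *NAS1* in *kaku4*. *NAS4* made up 32.9%, 33.8% and 31.2% of the summed FPKM in the *kaku4* libraries, against 60.1%, 66.0% and 62.0% in the WT libraries. *NAS1* made up 46.5%, 43.1% and 49.7% in *kaku4* and 31.2%, 26.6% and 29.9% in WT. *NAS3* took 20.6%, 22.8% and 18.4% in *kaku4*, against 6.53%, 4.68% and 5.07% in WT. The order of *NAS4* and *NAS1* was reversed in every library, with ratios of *NAS4* to *NAS1* of 0.708, 0.784 and 0.627 in *kaku4* and of 1.93, 2.48 and 2.07 in WT. Between families, *FER1* exceeded *NAS4* in *kaku4* by ratios of 10.3, 6.94 and 7.87, whereas in WT the ratio was 0.454, 0.348 and 0.359.

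Of the transporter genes, *OPT3* (AT4G16370, chromosome 4, 9247302 to 9250343, minus strand, 5 exons) had the highest level of the 10 genes in both genotypes. Its product works in companion cells of the phloem. It had 144.7, 143.8 and 131.4 FPKM in *kaku4*, against 151.4, 146.9 and 166.7 FPKM in WT. Every *kaku4* value was below every WT value, but by little, and the interval of the log2 fold change of -0.15 ran between -0.42 and 0.13 (limma adjusted p = 0.323). The direction depended on the processing, with 0.37 at a common total, 0.39 after quantile normalization and -0.82 with the length trend removed (limma adjusted p = 0.00245).

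*YSL1* (AT4G24120, chromosome 4, 12524186 to 12527347, plus strand, 4 exons) and *YSL3* (AT5G53550, chromosome 5, 21755251 to 21758950, plus strand, 8 exons) encode vascular transporters that are known to help move metals out of ageing leaves and into seeds. *YSL1* had 2.85, 3.97 and 3.79 FPKM in *kaku4* and 1.92, 1.68 and 1.33 FPKM in WT. The genotypes did not overlap, and the log2 fold change was 1.06 (SE 0.22, 95% interval 0.56 to 1.57, limma adjusted p = 0.00389), close to the threshold. It was under the threshold without *kaku4* replicate 2 (0.98) or WT replicate 3 (0.93), and was 0.37 with the length trend removed (limma adjusted p = 0.147).

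*YSL3* had 18.7, 17.1 and 16.6 FPKM in *kaku4*, against 11.4, 11.2 and 12.3 FPKM in WT, again with no overlap. Its log2 fold change of 0.59 (95% interval 0.30 to 0.87, limma adjusted p = 0.00417) was under the threshold in size and turned to -0.17 with the length trend removed. The ratio of *YSL1* to *YSL3* within a library overlapped between genotypes, with 0.152, 0.233 and 0.228 in *kaku4* and 0.168, 0.150 and 0.108 in WT.

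Transcript length separates the transporters from the other genes. The ferritin and nicotianamine synthase transcripts are 1252 to 1443 nucleotides long, and genes of like length had median log2 fold changes of -0.57 (decile 3 of length) and -0.36 (decile 4). The transcripts of *OPT3*, *YSL1* and *YSL3* are 2698, 2741 and 2860 nucleotides long, in decile 9, where the median was 0.74. Relative to these medians, *FER1* stood above and *NAS2* and *NAS4* below genes of like length, while *YSL1* and *YSL3* were near theirs. *OPT3* (-0.15) was below genes of like length, and *NAS3* (0.51) and *FER4* (0.15) were above. *FER3* (-0.54) was near its median, and *NAS1* (-0.74) was below, with -0.45 once the trend was removed (limma adjusted p = 0.0413). With the trend removed, *FER1* had 2.34, *NAS4* -2.09 and *NAS2* -3.28, and each kept its call, while *NAS3* had 0.80 (limma adjusted p = 0.0129) and was not called.

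**Figure D3:**
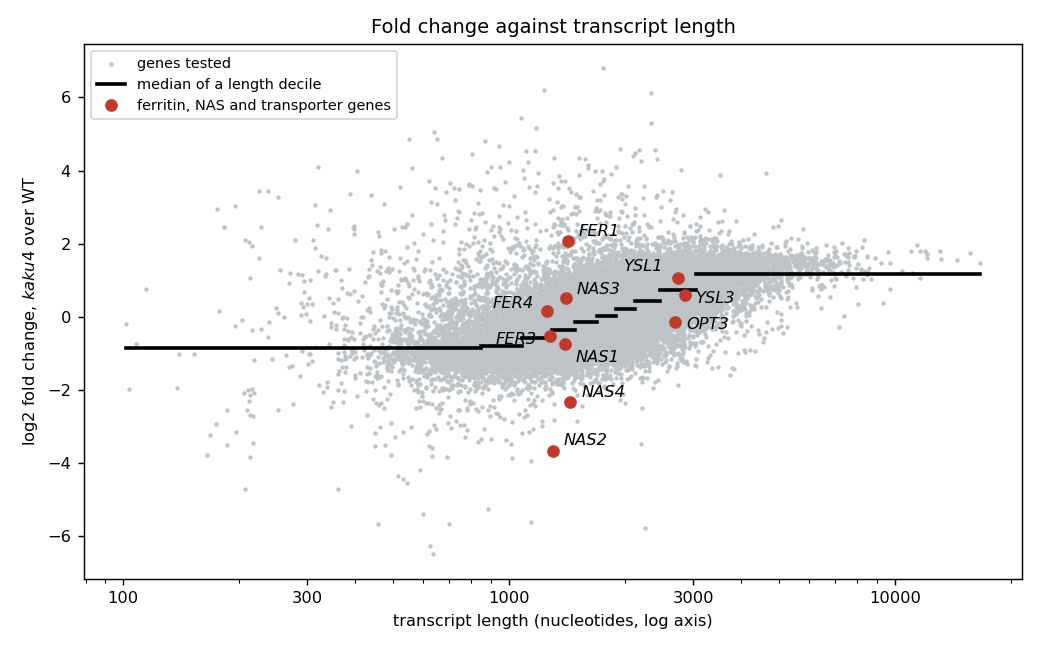
Log2 fold change (*kaku4* over WT) against transcript length in nucleotides (log axis) for the genes tested that have a RefSeq length (grey). Black bars are medians of length deciles and red points the 10 genes. The medians climb with length and reach 1.16 in the longest decile. *FER1* at 2.07 lies well above and *NAS4* at -2.34 well below genes of like length, and *YSL3* at 0.59 lies near the median of 0.74.

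**Figure D4:**
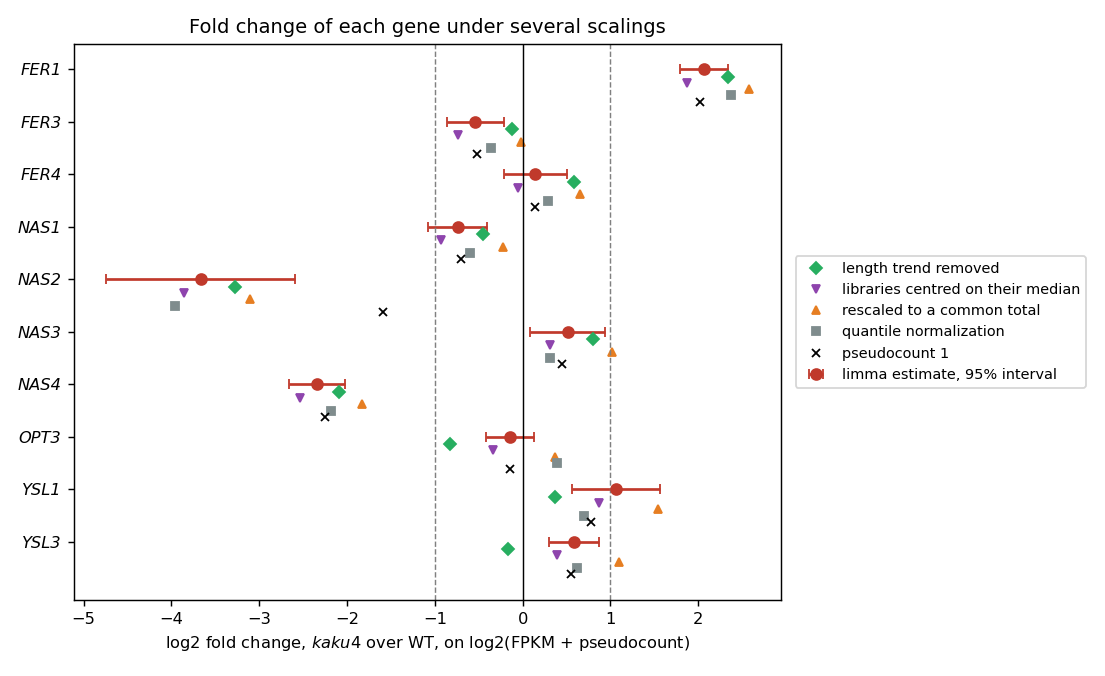
Log2 fold change (*kaku4* over WT) of each gene with its 95% interval (red circle and line), and the estimates under other processing (smaller symbols). Dashed lines mark a log2 fold change of 1 in either direction. All estimates of *FER1* are at or above 1.87 and all of *NAS4* at or below -1.83, whereas those of *FER4*, *OPT3* and *YSL3* fall on both sides of 0.

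By level, the order of the genes differed between genotypes. The order was not adjusted for the length trend, and *OPT3*, *YSL1* and *YSL3* have longer transcripts than the other genes. In *kaku4* it ran *OPT3*, *FER1*, *FER4*, *FER3*, *YSL3*, *NAS1*, *NAS4*, *NAS3*, *YSL1*, *NAS2*, and the libraries of neighbours overlapped only between *FER4* and *FER3*, *FER3* and *YSL3*, and *YSL3* and *NAS1*. In WT the order ran *OPT3*, *NAS4*, *FER3*, *NAS1*, *FER1*, *FER4*, *YSL3*, *NAS3*, *NAS2*, *YSL1*, with overlap between *FER3* and *NAS1*, *FER1* and *FER4*, and *NAS2* and *YSL1*. *FER1* thus ranked 2 in *kaku4* and 5 in WT, and *NAS4* ranked 7 in *kaku4* and 2 in WT. Counting libraries that did not overlap, 4 of the 10 genes were above WT in *kaku4* (33.5% of all genes tested) and 5 were below (31.3%).

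The genes whose levels were most like those of *FER1*, by the root mean square difference of log2(FPKM + 0.1) over the 6 libraries, were *TT4* (AT5G13930, chalcone synthase, 0.21), *BIP1* (AT5G28540, a chaperone of the endoplasmic reticulum, 0.25) and *SHD* (AT4G24190, an HSP90 of the same compartment, 0.25). *TT4* had 75.98, 86.8 and 76.5 FPKM in *kaku4* and 21.9, 17.5 and 19.5 FPKM in WT. This measure says only that their levels were alike in these libraries.

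The rest of the pathway was read from lists of related genes. Their counts are set beside the 16.4% of all genes tested that were upregulated and the 11.5% that were downregulated. These shares differ with transcript length. In length decile 9, 678 of 2046 genes were upregulated and 24 downregulated, against 78 and 403 of 2046 in decile 3. The lists were not matched for length. Of the enzymes that make S-adenosylmethionine, the substrate of nicotianamine synthase, *SAM1* and *SAM2* were upregulated (log2 fold changes 1.32 and 1.24), 2 of 4 genes tested, while *MAT3* (0.63) and *MTO3* (0.24) were not called. Their median was 0.94, against 0.0021 over all genes tested. Among the other YSL genes, *YSL6* (1.04) and *YSL7* (2.17) were upregulated, 2 of 6, with a median of 0.76. Among the other OPT genes, *OPT1* (2.16) and *OPT5* (1.35) were upregulated, 2 of 5 tested, with a median of 0.22. With the length trend removed, 1 gene of each of these transporter lists was called, and without *kaku4* replicate 2 only 1 of the other YSL genes was. The seed ferritin gene *FER2* had little transcript in either genotype (0.335 ± 0.023 FPKM in *kaku4* and 0.517 ± 0.250 FPKM in WT; SD, n = 3 each) and was not called.

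Vacuolar transport genes were mixed. *ZIF1*, whose product moves nicotianamine into the vacuole, fell to 34.8 ± 2.55 FPKM in *kaku4*, against 77.9 ± 7.41 FPKM in WT (SD, n = 3 each, log2 fold change -1.16, limma adjusted p = 3.49e-04), and it was not called at a common total or after quantile normalization. *VTL1*, of the vacuolar iron transporter family, was upregulated (1.16), and the other 5 of 7 genes tested were not called (median 0.45). In the chloroplast and mitochondrial list, 2 of 12 genes were upregulated, a share near the 16.4% of all genes. These were *ABCI8* (listed as *SUFB*, an iron-sulfur cluster assembly factor, 1.43) and *NEET* (1.71), and the median of the list was -0.14. *NEET* varied widely, with 23.76 ± 11.97 FPKM in *kaku4* and 7.78 ± 5.19 FPKM in WT (SD, n = 3 each), and without *kaku4* replicate 1, WT replicate 2 or WT replicate 3 only 1 gene of this list was upregulated. Of 5 long-distance and root uptake genes, *NRAMP1* was upregulated (1.03) and *IRT1* downregulated (-2.01), the second at 0.225 ± 0.131 FPKM in *kaku4* and 1.204 ± 0.559 FPKM in WT (median of the list -0.60). *VTL1* and *NRAMP1* lost their calls without WT replicate 1, with a pseudocount of 1, with the libraries centred and after quantile normalization. *NRAMP1* also lost its call without *kaku4* replicate 2, with replicates 2 and 3 only and with the length trend removed. *IRT1* lost its call with a pseudocount of 1 and was not tested at a minimum mean of 1 FPKM. Some settings also added calls. With the length trend removed, 3 genes of the vacuolar list were upregulated and 3 of the uptake list downregulated. With centred libraries, 2 genes of the chloroplast and mitochondrial list were downregulated.

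Of 17 iron regulators, 7 were downregulated and 1 upregulated (AT1G18910), against 11.5% and 16.4% of all genes tested, with a median of -0.87. The downregulated genes were *BHLH038*, *BHLH039*, *BHLH100* and *BHLH101*, transcription factors induced by iron shortage, and the loci AT1G47400, AT1G47395 and AT2G30766, with log2 fold changes between -3.19 and -2.28. The downregulated numbered 7 to 9 under the alternatives. AT1G18910 was not called with a pseudocount of 1 or with the length trend removed, and was not tested at a minimum mean of 1 FPKM.

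**Figure D5:**
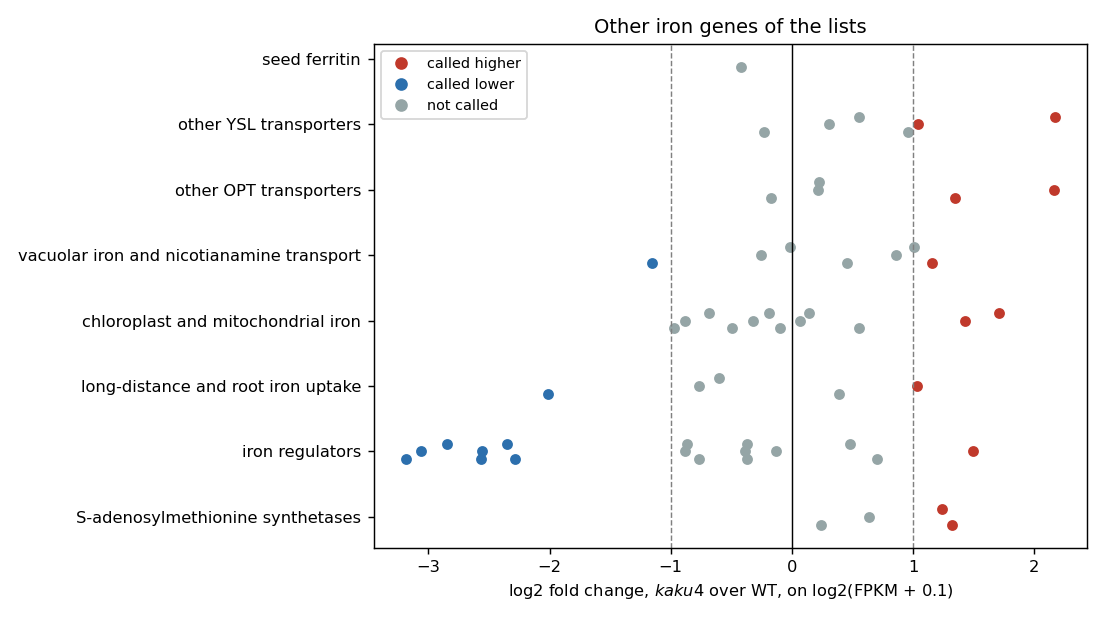
Log2 fold change (*kaku4* over WT) of the genes tested in each list of related iron genes, with upregulated genes in red, downregulated genes in blue and genes not called in grey. Dashed lines mark a log2 fold change of 1 in either direction, and small vertical offsets only separate points. The 7 blue points of the iron regulators lie between -3.19 and -2.28, and the S-adenosylmethionine synthetases all lie above 0.

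In whole leaves, fewer cells of a type and less RNA per cell cannot be told apart. Since *OPT3*, *YSL1* and *YSL3* are genes of the vascular tissue, 5 phloem markers were read beside them. *PP2-A1* was downregulated (-1.11) and the other 4 were not called, *SUC2* with 0.78 and *SEOR1* with 0.83. Their summed FPKM lay between 159 and 168.5 in *kaku4* and between 202.9 and 237.5 in WT. This lower sum came from *PP2-A1* alone, since the other 4 had higher means in *kaku4* and summed to between 75.9 and 92.64 FPKM in *kaku4* and between 46.48 and 51.69 FPKM in WT. The 6 green leaf markers summed to between 38470 and 42830 FPKM in *kaku4* and between 43450 and 49090 FPKM in WT. They did not move together, *RBCS1A* having 0.26 and *RCA* 0.70 on the log2 scale, and the other 4 were below 0. Of 4 root markers, *EXP7* and *PRP3* were listed at 0 in all *kaku4* libraries and each in 2 of the 3 WT libraries, and the sum of the list lay between 0.059 and 0.350 FPKM in *kaku4* and between 0.167 and 0.850 FPKM in WT. Of 5 floral organ markers 4 were downregulated, with sums of 0.667 to 0.903 FPKM in *kaku4* and 2.32 to 3.24 FPKM in WT. Of 3 anther markers, AT5G07230 was listed at 0 in all *kaku4* libraries and downregulated, whereas *LAP6* had 1.601 ± 0.354 FPKM in *kaku4* and 0.93 ± 0.16 FPKM in WT (SD, n = 3 each, log2 fold change 0.71, limma adjusted p = 0.0393), and the list summed to between 1.284 and 1.984 FPKM in *kaku4* and between 1.68 and 6.70 FPKM in WT. Of the 4 seed markers, *CRU3* and *SESA3* had no FPKM value, and *CRA1* and *OLEO1* did not reach the minimum for testing. The part of all these cell types in the results for the iron genes was not tested.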

How the data were processed

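RNA-seq of 6 rosette leaf libraries (3 *kaku4*, 3 WT, grouped by their labels) was analysed. The reads were paired, 150 bases long. The authors aligned them to TAIR10 with TopHat2 2.0.9 and deposited FPKM values from Cufflinks, the only unit used, which are already scaled by transcript length and library size. Of 24492 loci, 1442 hold a spreadsheet error mark in place of every value and were left out. No other column of values was present. H3K27me3 ChIP-seq, with 1 sample per genotype, was not analysed here.

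From the deposited FPKM, log2(FPKM + 0.1) was computed and 20618 genes with a mean of at least 0.1 were tested with limma 3.58.1 (R 4.3.3; mean-variance trend, no covariates, Benjamini-Hochberg adjustment over all genes tested). The study's own test needs read counts, so limma was used. The code was tested on simulated data. Named were the 10 genes, *KAKU4*, any gene of the lists, and the 3 genes nearest to *FER1* in level. Members and lists were chosen with earlier results of these data known. Coordinates, lengths and sequences are from the RefSeq annotation of TAIR10.1, matched by locus.

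The 18 alternatives changed the pseudocount, the filter, the scaling, the length trend (lowess, span 0.4), the replicate block or the mean-variance trend, left out each library in turn, or kept replicates 2 and 3 only.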

Additional observations from a re-analysis of the deposited data

How the results depend on the processing

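*FER1*, *NAS4* and *NAS2* kept their calls in all 18 alternatives, with log2 fold changes of 1.87 to 2.58, -2.54 to -1.83 and -5.14 to -1.59, so 2 of the 10 genes stayed downregulated throughout. The number upregulated was 1 in place of 2, *YSL1* no longer passing, with a pseudocount of 1 (0.78), centred libraries (0.87), quantile normalization (0.69) and the length trend removed with or without the replicate block (0.37), and it was 1 to 2 when libraries were left out in turn. It was 4 at a common total, where *NAS3* (1.02) and *YSL3* (1.09) also passed. Direction reversed for *FER4* with centred libraries (-0.0492), for *OPT3* at a common total (0.3689) and after quantile normalization (0.3911), and for *YSL3* with the length trend removed (-0.1713, with or without the block). The ferritin sum ratio was 2.71 at a common total. Of all genes tested, the upregulated numbered 1743 with a pseudocount of 1, 6148 at a common total, 1602 with the length trend removed and 1640 with the block as well, and the downregulated numbered 3846 with centred libraries, 411 at a common total, 1075 with the length trend removed and 1100 with the block as well. The cause of these moves was not tested. Same-numbered libraries had correlated deviations of 0.31, 0.08 and 0.01 for replicates 1, 2 and 3. *kaku4* replicate 2 correlated best with WT replicate 3 (0.21) and *kaku4* replicate 3 with WT replicate 2 (0.20), so the numbers were not taken as pairs. The highest value, 0.31, belonged to the replicate 1 libraries, which also stood apart in chloroplast transcripts. Whether these libraries shared a batch was not tested. With the replicate block, 2 of the 10 genes were upregulated and 2 downregulated, and 3410 and 2481 of all genes. No read counts were used, so depth was not weighed.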
